A study of Oryzias latipes and Danio rerio with 6 samples.

Results

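Listed regions near the ends of medaka chromosomes were examined in 4 deposited region lists. A region was included when its midpoint lay within 1 Mb of either end of chromosomes 1 to 24. Position 0 served as the start of a chromosome, and the largest region end found in any of the 4 lists as its far end. This rule gave 1387 of the 13569 regions on these chromosomes, and of the 16988 regions in the medaka lists. The whole series, with its zebrafish lists, held 52712 regions. The 48 ends together spanned 48 Mb, 6.64% of the 722.8 Mb of chromosome length.

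The data came from iDamID-seq, in which a protein is joined to Dam, a bacterial enzyme that methylates adenine in GATC sites, so that sites near the bound protein become methylated. Wild-type medaka embryos (Oryzias latipes) were injected with mRNA for Dam-Yap1, Dam-Yap1b or Dam-GFP, and genomic DNA was taken from whole embryos. The sample labels give stage 16 and the protocol text gives 80% epiboly, so the stage is stated as the sample labels have it. Each group was 1 sample, described in the labels' protocols as made from 3 replicates of 40 embryos, and the lists carry no value per replicate. For Yap1 and for Yap1b, a list of positive regions was deposited under the factor and a list of control regions under Dam-GFP. Both comparisons therefore share the Dam-GFP sample, and whole embryos mix all cell types of that stage.

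Yap1 is a transcriptional co-activator of the Hippo pathway, a kinase cascade that holds it out of the nucleus when active. It has no DNA-binding domain and reaches chromatin through partners, chiefly the TEAD factors. In medaka, loss of yap1 is known to flatten the body of the embryo. Yap1b is named in the title of the study as a further Yap family member of teleost fish. Chromosome ends carry telomere repeats and, inside these, often repeated sequence that is hard to assemble. A Dam-GFP fusion has no targeting partner and serves as the reference for where Dam methylates DNA by itself.

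With 1 sample per group, no test between lists could be made. The intervals given with shares are Wilson 95% intervals and cover counting of regions only, and neighbouring regions are not independent. The sources used here do not name the medaka genome build. On 9 chromosomes the lists reached beyond the last gene of the ASM223467v1 gene table (on chromosome 1, to 39.9 Mb against 37.7 Mb, and on chromosome 2, to 31.1 Mb against 25.4 Mb). On the others the gene table ran past the last listed region (on chromosome 6, to 32.2 Mb against 26.6 Mb). The table was therefore not used to place regions, and no gene is named. How far each far end, set by its last listed region, lies from the true chromosome end is unknown. Read depth was unknown.

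At the chromosome ends the control regions outnumbered the positive regions in both comparisons. The Yap1 lists held 257 positive and 523 control regions there, and the Yap1b lists held 208 positive and 399 control regions. Of the regions listed for the Yap1 comparison at the ends, 32.9% (29.7 to 36.3) were positive, against 46.6% over all 7505 regions of that comparison on the chromosomes. For Yap1b, 34.3% (30.6 to 38.1) were positive, against 53.2% of 6064. The intervals at the ends lay below both chromosome-wide shares. Away from the ends, 48.2% (47.0 to 49.4) of Yap1 and 55.3% (54.0 to 56.7) of Yap1b regions were positive.

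Of all chromosome regions of a list, the ends held 7.35% (6.53 to 8.26) for Yap1 positive and 13.1% (12.0 to 14.1) for Yap1 control, and 6.44% (5.65 to 7.34) for Yap1b positive and 14.1% (12.8 to 15.4) for Yap1b control. The control lists were denser at the ends than inside the chromosomes, and the positive lists were close to their inner density. The Yap1 positive list had 5.35 regions per Mb at the ends and 4.80 per Mb inside, a ratio of 1.11. The Yap1 control list had 10.9 per Mb at the ends and 5.16 inside, a ratio of 2.11. The Yap1b positive list had 4.33 per Mb at the ends and 4.48 inside, a ratio of 0.968, and the Yap1b control list had 8.31 and 3.61, a ratio of 2.30. In covered sequence, positive regions took up 0.600% (Yap1) and 0.488% (Yap1b) of the end length, and control regions took up 1.03% and 0.808%.

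The density of control regions fell step by step from the outermost Mb inwards, well past the limit of 1 Mb. In successive bands of 1 Mb, each of 48 Mb over all chromosomes, the Yap1 control list had 10.9, 8.73, 7.83, 6.02 and 5.48 regions per Mb. It had 4.10 per Mb in the middle of the chromosomes, more than 10 Mb from both ends. The Yap1b control list had 8.31, 6.94, 5.44, 4.50 and 4.08 per Mb in the same bands and 2.75 in the middle. The outermost Mb was thus denser than the middle by 2.66-fold for the Yap1 control list and 3.03-fold for the Yap1b control list.

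The positive lists had no such slope. The Yap1 positive list had 5.35, 5.25, 5.08, 3.54 and 4.96 regions per Mb in the first 5 bands and 4.61 in the middle. The Yap1b positive list had 4.33, 4.60, 4.17, 3.67 and 4.75 per Mb and 4.58 in the middle. The ratio of the outermost Mb to the middle was 1.16 for Yap1 and 0.945 for Yap1b. The lowest value of each positive list among the 1 Mb bands came in the fourth band, from 3 to 4 Mb.

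**Figure D1:**
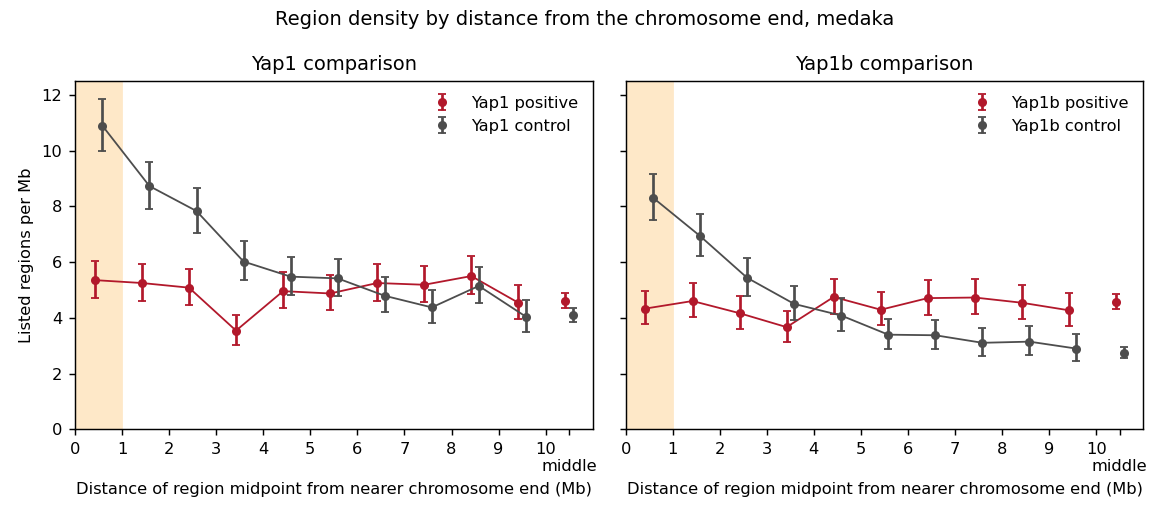
Listed regions per Mb against the distance of the region midpoint from the nearer chromosome end, in bands of 1 Mb, with the chromosome middle (beyond 10 Mb) as the last point. Positive lists are red, control lists grey, bars are exact Poisson 95% intervals of the count, and the shaded band is the outermost Mb. Control density falls inwards from 10.9 (Yap1) and 8.31 (Yap1b) per Mb, while positive density stays between 3.54 and 5.50 per Mb for Yap1 and between 3.67 and 4.75 for Yap1b.

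The positive share of the listed regions was higher in bands further from the end. In the Yap1 comparison it was 32.9% in the outermost Mb, 37.6% in the second, 39.4% in the third, 37.0% in the fourth and 47.5% in the fifth. It was 52.9% (50.8 to 55.0) in the middle. In the Yap1b comparison the shares were 34.3%, 39.9%, 43.4%, 44.9% and 53.8% in the same bands, and 62.5% (60.3 to 64.7) in the middle. The slope continued past the limit of 1 Mb. In the last 100 kb inside the limit the Yap1 lists held 17 positive and 42 control regions, and in the first 100 kb outside it 25 positive and 33 control regions. The Yap1b lists held 14 positive and 37 control regions just inside and 23 positive and 40 control regions just outside.

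The excess of control regions was spread over most ends. The Yap1 positive list had more regions than its control list at 5 of 48 ends, the same number at 3 and fewer at 40. Among 661 inner windows of 1 Mb, the Yap1 positive count was above the control count in 39.8% and below it in 46.7%. The Yap1b positive list had more regions than its control list at 9 of 48 ends, the same number at 2 and fewer at 37, whereas 52.8% of the inner windows had more positive and 35.4% more control regions. Positive minus control ranged from -23 to 4 regions per end for Yap1, with a median of -5, and from -17 to 4 for Yap1b, with a median of -3.5. In the inner windows the median difference was 0 for Yap1 and 1 for Yap1b. The number of ends with more Yap1 positive regions was sensitive to the settings. It was 8 with ends of 0.5 Mb, 9 with the regions at or above the median score of their list and 3 with regions within 10 kb merged. The 24 starts alone gave 2, a count over fewer ends than the 48.

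**Figure D2:**
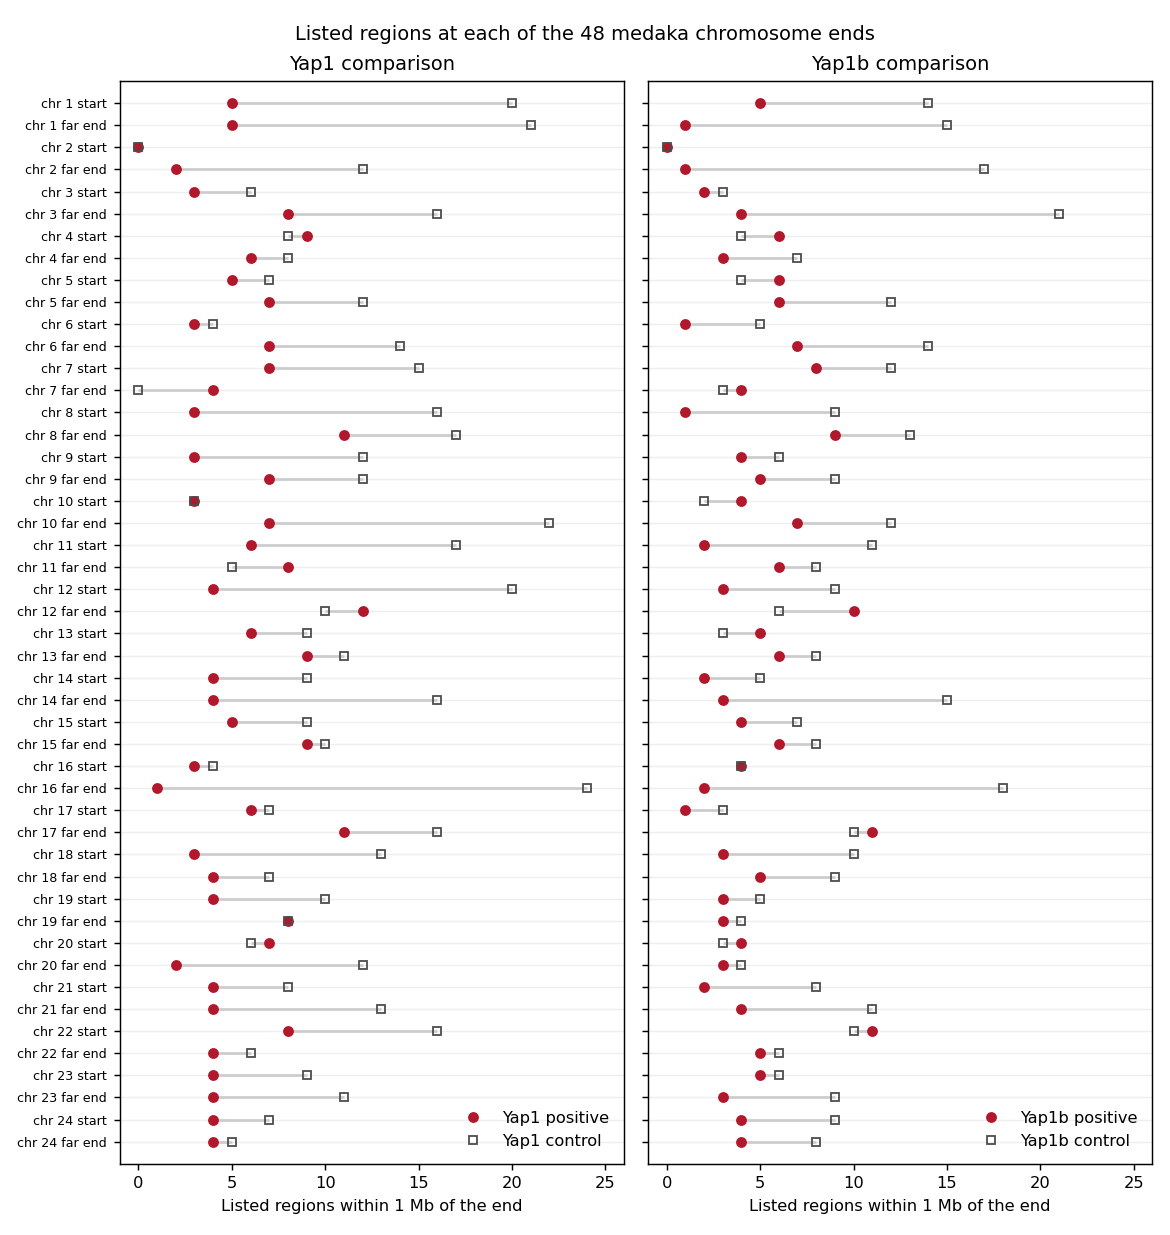
Number of listed regions within 1 Mb of each of the 48 chromosome ends (rows), with positive lists as red dots and control lists as open grey squares, joined by a line, for the Yap1 comparison (left) and the Yap1b comparison (right). Control squares lie to the right of the positive dots at 40 ends for Yap1 and at 37 ends for Yap1b. The widest Yap1 gap is at the far end of chromosome 16, with 1 positive and 24 control regions. The widest Yap1b gap is at the far end of chromosome 3, with 4 positive and 21 control regions.

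In the Yap1 comparison the widest gap was at the far end of chromosome 16, with 1 positive and 24 control regions. The Yap1b comparison had 2 positive and 18 control regions there. Chromosome 1 stood out at both of its ends: its start had 5 Yap1 positive and 20 Yap1 control regions, and its far end had 5 positive and 21 control regions. In the Yap1b comparison the start of chromosome 1 had 5 positive and 14 control regions and the far end had 1 positive and 15 control regions. Control counts at these 3 ends were above the median of their list in both comparisons, while positive counts ran from 1 to 5, around list medians of 4.5 (Yap1) and 4 (Yap1b).

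Other ends with many control regions did so with differing positive counts. The far end of chromosome 10 had 7 Yap1 positive and 22 Yap1 control regions, and the start of chromosome 12 had 4 positive and 20 control regions. The far end of chromosome 3 had 4 Yap1b positive and 21 Yap1b control regions, the highest Yap1b control count. At the far end of chromosome 2 there were 1 Yap1b positive and 17 Yap1b control regions, and 2 Yap1 positive and 12 Yap1 control regions. The far end of chromosome 14 had 3 Yap1b positive and 15 Yap1b control regions.

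Among the ends richest in positive regions named here, far ends outnumbered starts in both positive lists. The rule favours far ends, because each was set by its last listed region. The first listed region began a median of 212.9 kb inside the start on 23 of the chromosomes. Starts and far ends are therefore not on equal terms, and no difference between them is read from these counts. The Yap1 positive list had 12 regions at the far end of chromosome 12, 11 at those of chromosomes 8 and 17, and 9 each at the start of chromosome 4 and the far ends of chromosomes 13 and 15. The Yap1b positive list had 11 regions at the far end of chromosome 17 and at the start of chromosome 22, 10 at the far end of chromosome 12, 9 at the far end of chromosome 8 and 8 at the start of chromosome 7. Of these, the far end of chromosome 12 and the start of chromosome 4 had more positive than control regions in both comparisons. The far end of chromosome 12 had 12 positive and 10 control regions for Yap1 and 10 and 6 for Yap1b. The start of chromosome 4 had 9 positive and 8 control regions for Yap1 and 6 and 4 for Yap1b. The far end of chromosome 8 had the most regions over the 4 lists together, at 50, with 11 Yap1 positive, 17 Yap1 control, 9 Yap1b positive and 13 Yap1b control regions.

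Few ends favoured the positive lists, and the margins were small. For Yap1 these were the far end of chromosome 7 (4 positive and 0 control regions), the far end of chromosome 11 (8 and 5), the far end of chromosome 12 (12 and 10), the start of chromosome 4 (9 and 8) and the start of chromosome 20 (7 and 6). For Yap1b the largest margin was 4, at the far end of chromosome 12, followed by margins of 2 at the starts of chromosomes 4, 5, 10 and 13. Margins of 1 were found at the far ends of chromosomes 7 and 17 and at the starts of chromosomes 20 and 22.

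The start of chromosome 2 held no region in any of the 4 lists. The first listed region of that chromosome began 4442 kb from its start, compared with 48.6 to 408.7 kb (median 212.9 kb) on the other 23 chromosomes. The far end of chromosome 7 was the only further end with no Yap1 control region, and it had 3 Yap1b control regions. At the low end of the counts, the start of chromosome 10 had 3 Yap1 control and 2 Yap1b control regions, and the starts of chromosomes 3, 13, 17 and 20 had 3 Yap1b control regions each.

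Counts per end also differed in spread between the lists. The Yap1 positive list averaged 5.35 ± 2.64 regions per end and the Yap1 control list 10.9 ± 5.57 (SD over 48 ends). The Yap1b positive list averaged 4.33 ± 2.55 and the Yap1b control list 8.31 ± 4.55. At least 10 regions were found at 3 ends in each positive list, at 26 ends in the Yap1 control list and at 16 ends in the Yap1b control list. Among the inner windows of 1 Mb, the share with at least 10 regions was 8.02% for Yap1 positive, 11.5% for Yap1 control, 6.35% for Yap1b positive and 3.18% for Yap1b control. For the ends, the counts come to 6.25% in both positive lists, 54.2% in the Yap1 control list and 33.3% in the Yap1b control list.

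The variance of the positive counts was nearer to their mean at the ends than inside. Variance divided by mean was 1.30 at the ends and 2.32 in the inner windows for Yap1 positive, and 1.51 and 2.14 for Yap1b positive. In the control lists it was 2.84 at the ends and 2.43 inside for Yap1, and 2.49 and 2.03 for Yap1b. The 5 fullest ends held 20.2% of the Yap1 positive and 20.5% of the Yap1 control end regions, and 23.6% of the Yap1b positive and 21.6% of the Yap1b control end regions.

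**Figure D3:**
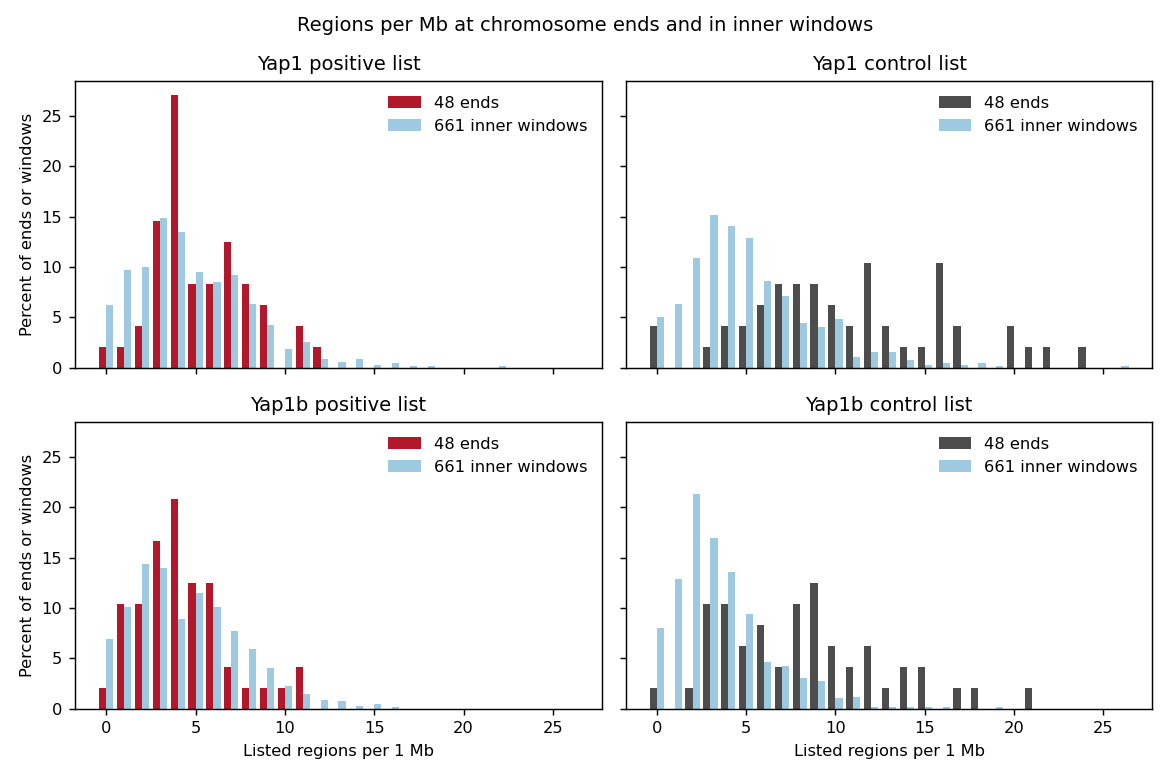
Percentage of the 48 chromosome ends (red or dark grey) and of 661 inner windows of 1 Mb (blue) that hold each number of listed regions, 1 panel per list. In the positive lists the medians are alike, 4.5 at the ends and 4 inside for Yap1 and 4 in both for Yap1b. The highest counts are 12 at the ends and 22 inside for Yap1, and 11 and 16 for Yap1b. In the control lists the ends are shifted to higher counts, with medians of 10 at the ends and 4 inside for Yap1 and of 8 and 3 for Yap1b.

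Within the outermost Mb, starts and far ends differed in how close to the edge regions were listed. At the 24 chromosome starts, the first 200 kb held 1 Yap1 positive and 19 Yap1 control regions, and 4 Yap1b positive and 12 Yap1b control regions. In the first 100 kb there were 0 positive regions of either factor, with 4 Yap1 control and 6 Yap1b control regions. The outermost stretch of the starts was thus sparse in regions of all 4 lists, and these counts are too small to set positive and control lists apart. At the far ends the outermost 200 kb held 38 Yap1 positive and 72 Yap1 control regions, and 35 Yap1b positive and 67 Yap1b control regions. The position of a far end was set by its last listed region, so a region at its very edge is fixed by the rule, while starts carry no such condition.

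The outermost 100 kb of the far ends held 21 Yap1 positive and 46 Yap1 control regions, and 18 Yap1b positive and 46 Yap1b control regions. Of these, 2 Yap1 positive, 12 Yap1 control, 3 Yap1b positive and 11 Yap1b control regions were the last regions that set a far end. Without them the counts were 19 Yap1 positive and 34 Yap1 control regions, and 15 Yap1b positive and 35 Yap1b control regions. The Yap1 control count was then below the 37 regions found from 600 to 700 kb. The Yap1b control count stayed above its highest other step, 28 regions from 300 to 400 kb. Both positive counts were below their highest other steps, 22 (Yap1) and 23 (Yap1b) regions from 400 to 500 kb. In all, 109 Yap1 positive and 235 Yap1 control regions lay at starts, and 148 positive and 288 control regions at far ends. For Yap1b the starts held 90 positive and 152 control regions and the far ends 118 positive and 247 control regions.

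The positive share was below the chromosome-wide share at both kinds of end. At the starts, 31.7% (27.0 to 36.8) of the Yap1 regions and 37.2% (31.3 to 43.4) of the Yap1b regions were positive. At the far ends, 33.9% (29.7 to 38.5) of the Yap1 regions and 32.3% (27.7 to 37.3) of the Yap1b regions were positive. The intervals of starts and far ends overlapped in each comparison.

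**Figure D4:**
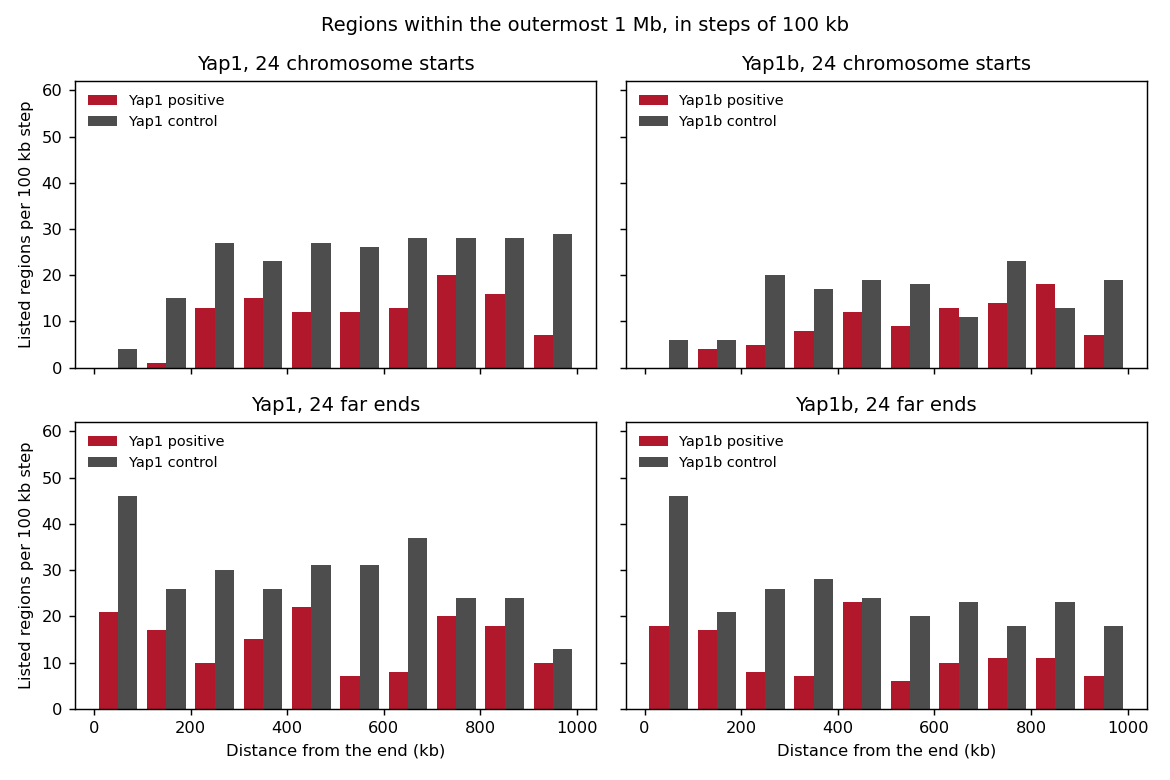
Number of listed regions in steps of 100 kb from the edge, summed over the 24 chromosome starts (top) and the 24 far ends (bottom), with positive lists in red and control lists in grey. Positive regions are absent from the first 100 kb of the starts, and the outermost step of the far ends, with 46 control regions in each comparison, includes 12 (Yap1) and 11 (Yap1b) control regions that set the far end itself.

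Some of the fullest 100 kb windows, picked from 480 at the ends by their count in a list, held almost only regions of 1 kind. No matching count for inner windows of 100 kb is given, so this is not read as a trait of the ends. From 100 to 200 kb inside the far end of chromosome 17 there were 5 Yap1 positive and 0 Yap1 control regions, and 6 Yap1b positive and 0 Yap1b control regions. From 600 to 700 kb inside the start of chromosome 7 there were 4 Yap1 positive and 0 Yap1 control regions, and 5 Yap1b positive and 1 Yap1b control region. From 400 to 500 kb inside the far end of chromosome 12 there were 5 Yap1 positive and 1 Yap1 control region, and 4 Yap1b positive and 0 Yap1b control regions. These were the 3 fullest windows of the Yap1b positive list. In the Yap1 positive list the chromosome 7 window tied, at 4 regions, with windows from 800 to 900 kb inside the far end of chromosome 15 and in the outermost 100 kb of the far end of chromosome 19.

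The fullest windows of the control lists lay elsewhere. From 100 to 200 kb inside the far end of chromosome 1 there were 0 Yap1 positive and 7 Yap1 control regions, and 0 Yap1b positive and 5 Yap1b control regions. From 200 to 300 kb inside the start of chromosome 11 there were 1 Yap1 positive and 6 Yap1 control regions, and 1 Yap1b positive and 3 Yap1b control regions. In the outermost 100 kb of the far end of chromosome 23 there were 0 Yap1 positive and 4 Yap1 control regions, and 0 Yap1b positive and 5 Yap1b control regions. The start of chromosome 1 held, from 300 to 400 kb, 1 Yap1 positive and 5 Yap1 control regions and, from 500 to 600 kb, 1 Yap1b positive and 4 Yap1b control regions. The last 2 counts were ties: 6 windows held at least 5 Yap1 control regions and 13 held at least 4 Yap1b control regions. Over all 480 such windows, a Yap1 positive region was found in 37.7% and a Yap1 control region in 56.5%, and a Yap1b positive region in 32.3% and a Yap1b control region in 51.2%.

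Neighbouring regions were closer together at the ends in the control lists, whose density there was 2.11 (Yap1) and 2.30 (Yap1b) times that inside. Gaps were not adjusted for density. The median gap to the nearest region of the same list was 55.9 kb at the ends and 40.9 kb inside for Yap1 positive, and 65.4 kb and 45.7 kb for Yap1b positive. For the control lists it was 19.9 kb at the ends and 46.5 kb inside (Yap1), and 25.6 kb and 71.8 kb (Yap1b). A neighbour of the same list within 10 kb was found for 30.7% (25.4 to 36.6) of Yap1 positive regions at the ends and 26.3% (24.8 to 27.8) inside. It was found for 33.7% (29.7 to 37.8) of Yap1 control regions at the ends and 18.5% (17.3 to 19.9) inside. For Yap1b the values were 27.4% (21.8 to 33.8) and 25.0% (23.5 to 26.6) in the positive list and 23.3% (19.4 to 27.7) and 14.7% (13.4 to 16.2) in the control list.

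Positive regions at the ends also lay nearer to control regions of the same comparison than positive regions inside did. A control region within 10 kb was found for 23.3% (18.6 to 28.9) of Yap1 positive regions at the ends and 10.8% (9.75 to 11.9) inside. For Yap1b the shares were 17.3% (12.8 to 23.0) at the ends and 7.62% (6.72 to 8.62) inside. The control density itself was 2.11 (Yap1) and 2.30 (Yap1b) times as high at the ends. No positive region overlapped a control region of its own comparison, either at the ends or inside. The positive and control lists of a comparison may be opposite directions of the same contrast, and then could not overlap. The absence of overlap is therefore not read as a result.

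Small clusters, with gaps of at most 10 kb, were present at the ends. No matching count for inner regions is given, so their number is not read as a trait of the ends. The 257 Yap1 positive regions formed 214 groups, of which 178 were single regions and 5 had at least 3 members, and the 523 Yap1 control regions formed 428 groups with 12 of at least 3. The 208 Yap1b positive regions formed 176 groups with 4 of at least 3, and the 399 Yap1b control regions formed 347 groups with 9 of at least 3. The largest positive cluster was 5 Yap1b regions over 12.6 kb at the far end of chromosome 17 (31677046 to 31689651). In the Yap1 positive list 4 regions lay over 17.7 kb of the same stretch (31669332 to 31687022).

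The other clusters of at least 4 positive regions lay at the start of chromosome 7 and the far end of chromosome 19. At the start of chromosome 7 the Yap1 list had 4 regions (657785 to 669419) and the Yap1b list had 4 (657785 to 670201). At the far end of chromosome 19 the Yap1 list had 4 regions within 3.42 kb (23314979 to 23318401). Control clusters of 4 regions were found at the far end of chromosome 6 (26322297 to 26334939) and the start of chromosome 11 (199971 to 209516) for Yap1, and at the far end of chromosome 5 (33458937 to 33477529) for Yap1b.

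The length of regions at the ends was close to that inside the chromosomes. Medians were 956 bp (803 to 1085, exact order-statistic 95% interval) at the ends and 941 bp (896 to 977) inside for Yap1 positive, and 808 bp (775 to 853) and 826 bp (809 to 841) for Yap1 control. For Yap1b they were 962.5 bp (822 to 1152) at the ends and 943 bp (911 to 970) inside in the positive list, and 797 bp (745 to 840) and 806 bp (789 to 823) in the control list. Positive regions were longer than control regions at the ends by 148 bp at the median for Yap1 (95% interval from -11.5 to 281) and by 165.5 bp for Yap1b (18.6 to 362). Inside, the differences were 115 bp (67.6 to 154.8) and 137 bp (100.8 to 168.9).

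Short regions were nearly all positive ones, both at the ends and inside. Under 300 bp were 13 of 257 Yap1 positive regions at the ends (5.06%, 2.98 to 8.46) and 1 of 523 Yap1 control regions (0.191%, 0.0338 to 1.08). For Yap1b these were 10 of 208 positive regions (4.81%, 2.63 to 8.62) and 0 of 399 control regions, with an upper limit of 0.954%. Inside, the shares under 300 bp were 6.73% of Yap1 positive and 0.144% of Yap1 control regions, and 5.79% and 0.205% for Yap1b. Regions of at least 2000 bp made up 7.78% (5.09 to 11.7) of the Yap1 positive list at the ends and 3.82% (2.49 to 5.83) of its control list. For Yap1b they made up 11.5% (7.88 to 16.6) of the positive list and 5.76% (3.87 to 8.50) of the control list there. Inside, regions of this length made up 9.78% of the Yap1 positive and 4.25% of the Yap1 control list, and 9.01% and 4.14% for Yap1b.

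The score of the authors is a whole number per region whose quantity is not stated, and it is used here only within a list. The median score of positive regions was lower at the ends than inside, with intervals that overlapped for Yap1 and were apart for Yap1b. These intervals treat neighbouring regions as independent, so they do not set the factors apart. The median score was 114 (108 to 122) at the ends and 122 (120 to 125) inside for Yap1 positive, and 156 (149 to 163) and 167 (165 to 171) for Yap1b positive. For the control lists it was 97 (96 to 100) at the ends and 96 (96 to 97) inside for Yap1, and 140 (137 to 143) and 136 (135 to 138) for Yap1b. The share of end regions above the median score of their own list was 43.6% (37.7 to 49.7) for Yap1 positive, 49.5% (45.3 to 53.8) for Yap1 control, 41.3% (34.9 to 48.1) for Yap1b positive and 54.1% (49.2 to 59.0) for Yap1b control. Of the 100 top-scored regions on the chromosomes, 5 of Yap1 positive and 14 of Yap1 control lay at the ends, and 3 of Yap1b positive and 16 of Yap1b control. The whole lists had 7.35%, 13.1%, 6.44% and 14.1% of their chromosome regions at the ends in the same order, so these counts were near the shares of the lists.

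**Figure D5:**
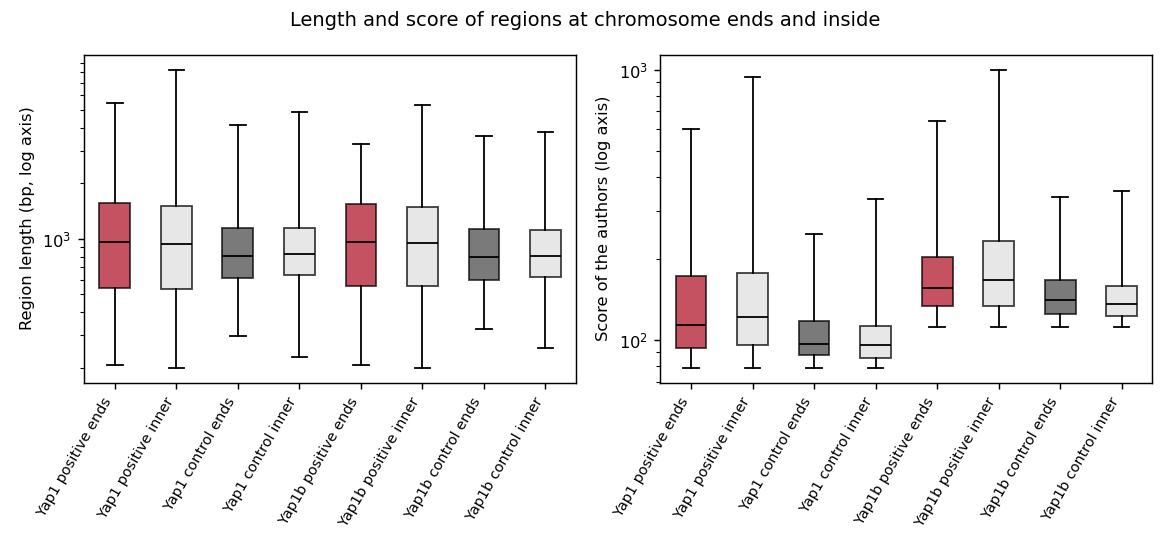
Length (left, bp) and score of the authors (right, no stated unit) of listed regions at chromosome ends (coloured) and inside the chromosomes (light grey), both on log axes; boxes span the quartiles with the median as a line, and whiskers reach the lowest and highest value. Lengths at the ends lie close to those inside, and the median score of positive regions is 114 at the ends and 122 inside for Yap1, and 156 at the ends and 167 inside for Yap1b, where scores are compared within a list only.

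The top-scored positive regions at the ends are given by position, with the scores of both comparisons side by side. The lowest score at the ends was 79 in the Yap1 and 112 in the Yap1b positive list, so each score is read against its own list. The highest Yap1 score, 603, belonged to a region of 1181 bp 639.7 kb inside the start of chromosome 24 (639100 to 640280), where the Yap1b positive list has a region of 299 bp with a score of 177. The region at the far end of chromosome 23 (23937610 to 23939273) scored 530 in the Yap1 and 242 in the Yap1b positive list. The region at the far end of chromosome 5 (33715475 to 33717008) scored 509 for Yap1 and 198 for Yap1b. These regions were picked for their Yap1 score. The lower and upper quartiles of Yap1b positive scores at the ends were 134 and 203. All 3 were ranked among the first 50 Yap1 regions of the chromosomes, at 22, 36 and 41. None overlapped a Yap1b control region, but the share over all Yap1 positive regions is not given, so this is not read as a result. That no Yap1 positive region on the chromosomes overlapped a Yap1 control region may be fixed by how the lists were made.

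The remaining top-scored Yap1 regions lay at the start of chromosome 4 (268677 to 270652), with scores of 498 for Yap1 and 405 for Yap1b, and at the far end of chromosome 20 (24078165 to 24078776). The chromosome 20 region scored 441 in the Yap1 and 524 in the Yap1b positive list, with equal edges, and was in the top 5 of each list at the ends. The highest Yap1b score at the ends, 643, belonged to a region of 1052 bp 237 kb inside the far end of chromosome 17 (31585030 to 31586081). The same region scored 94 in the Yap1 positive list, where the lowest score of the list at the ends was 79. The region was picked for its Yap1b score, and its Yap1 score lay near the lower quartile of the Yap1 positive list at the ends (93).

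The other top-scored Yap1b regions, also picked for their Yap1b score, lay at the starts of chromosomes 4 and 5 and the far end of chromosome 12. The region on chromosome 4 (717036 to 719219) scored 605 for Yap1b, and the Yap1 list has a region of 698 bp there with a score of 364. The region on chromosome 12 (29573225 to 29576119) scored 437 for Yap1b and 392 for Yap1. The region on chromosome 5 (594930 to 596747) scored 424 for Yap1b, and overlapped 2 Yap1 positive regions of which the higher scored 247. The chromosome 12 region, of 2895 bp, was also among the 3 longest Yap1b regions at the ends.

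The longest Yap1 region at the ends, 5437 bp at the start of chromosome 11 (689247 to 694683), scored 104 and was listed in the Yap1 positive list only. The second, 4167 bp at the far end of chromosome 22 (28508348 to 28512514), scored 89 and overlapped 1 positive and 2 control regions of the Yap1b comparison. The third, 3518 bp at the start of chromosome 18 (263693 to 267210), scored 128 and overlapped 2 Yap1b positive regions. The longest Yap1b regions were 3262 bp at the start of chromosome 14 (829929 to 833190, score 214) and 3099 bp at the start of chromosome 19 (398634 to 401732, score 165), followed by the top-scored region of 2895 bp on chromosome 12.

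The highest Yap1b control score at the ends was 338, for a region at the far end of chromosome 10 (27228777 to 27229508) that was in no other list. The next Yap1b control regions lay at the starts of chromosomes 18 (210716 to 211353, score 279), 7 (395685 to 396995, score 276), 11 (295528 to 297163, score 269) and 1 (532795 to 533865, score 267). In the Yap1 control list the regions on chromosomes 18, 11 and 1 had scores of 159, 114 and 178, and the region on chromosome 7 was not listed. The top Yap1 control score was 246, at the far end of chromosome 16 (29792268 to 29794649), the end with the most Yap1 control regions. None of these control regions overlapped a positive region of the other comparison. The share of all control regions with such an overlap is not given, so this is not read as a result. Within a comparison, no positive and control regions overlapped anywhere on the chromosomes, which may be fixed by how the lists were made.

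The remaining top Yap1 control regions lay at the far end of chromosome 10 (27521136 to 27522077, score 222), the start of chromosome 12 (889275 to 890053, score 221), the start of chromosome 19 (740998 to 741811, score 199) and the far end of chromosome 3 (36359016 to 36360871, score 192). The last of these lay within the longest Yap1b control region of the ends, of 3606 bp (36358280 to 36361885, score 238). Other long control regions were 3507 bp at the start of chromosome 21 (697789 to 701295) and 3333 bp at the start of chromosome 22 (297372 to 300704) for Yap1b. For Yap1 they were 4133 bp at the start of chromosome 8 (757716 to 761848), 3032 bp at the start of chromosome 19 (225507 to 228538) and 2681 bp at the start of chromosome 9 (392943 to 395623).

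The zebrafish ends, taken by the same rule in late gastrula embryos at 80% epiboly, gave the opposite direction. There 59.0% (55.9 to 62.1) of the listed Yap1 regions and 82.0% (80.5 to 83.5) of the listed Taz regions at 50 ends were positive, against 45.9% and 36.9% inside. The zebrafish control lists had 7.90 (Yap1) and 9.08 (Taz) regions per Mb at the ends and 6.17 and 8.04 inside. The zebrafish positive lists had 11.4 (Yap1) and 41.4 (Taz) regions per Mb at the ends and 5.24 and 4.70 inside. Species, labelled stage and construct changed together, so they cannot be told apart, and the difference was not tested.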

How the data were processed

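Region lists of 3 medaka samples (Dam-Yap1, Dam-Yap1b, Dam-GFP; 1 per group) were used, with the zebrafish lists only for the closing comparison. Per the submitters' processing notes, the authors used cutadapt, Bowtie2, SAMtools and bedtools, without versions; the build named, GRCz10 (danRer10), is a zebrafish assembly. Nothing in the sources used here gives the region caller, its thresholds, the pooling of replicates or the medaka build. The deposited lists hold region positions and a whole-number score made by the authors. The factor of a control list was read from its name.

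From these, regions were counted by midpoint distance to the nearer end, and lengths, scores, gaps and overlaps (at least 1 bp) were computed with Python 3.11.15, pandas 2.3.3, NumPy 2.4.6 and SciPy 1.17.1. Counting was tested on simulated data. Positions are printed counting from 1. With 1 sample per group no test was made. Named items were, per list, the 5 top-scored and 3 longest end regions, the 5 fullest and 3 emptiest ends and the 3 fullest 100 kb windows, and, per comparison, the ends with more positive than control regions. Inner windows of 1 Mb began 1 Mb from the chromosome start. The members and all rules were chosen with earlier results of these data known. Alternatives changed the end width, the ends or regions counted, the score limit and the merging of regions.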

Additional observations from a re-analysis of the deposited data

Results flagged for a closer look

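In medaka the share of Yap1 regions at chromosome ends differed by -5.71 percentage points, positive minus control, and in zebrafish by 3.04, so the same contrast had opposite signs in the species; the difference was not tested. Between the medaka comparisons, which share the Dam-GFP sample, 5 of the 48 ends had opposite signs of positive minus control, and none was tested. No matching count for inner windows is given, so this is not read as a trait of the ends. At the start of chromosome 5 the difference was -2 regions for Yap1 and 2 for Yap1b. At the far end of chromosome 11 it was 3 for Yap1 and -2 for Yap1b. At the start of chromosome 13 it was -3 and 2, at the far end of chromosome 17 -5 and 1, and at the start of chromosome 22 -8 and 1, Yap1 first in each.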

How the results depend on the processing

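Of 80 values under the alternatives, 56 lay within the counting interval of the value reported, or within 1.5 times a count of ends, and 24 did not. The positive share of the listed regions at the ends moved only when the upper part of each list by score (at or above its median) was kept, to 29.3% for Yap1 and 27.7% for Yap1b, against 46.6% and 52.8% over all chromosomes under that setting. The same setting gave 6.50% of Yap1 positive, 5.33% of Yap1b positive and 15.6% of Yap1b control regions at the ends, against 7.35%, 6.44% and 14.1% as reported. Shares at the ends changed with the length counted: ends of 0.5 Mb held 3.60% of Yap1 positive and 6.36% of Yap1 control regions, and 3.16% of Yap1b positive and 7.51% of Yap1b control regions. Ends of 2 Mb held 14.6% and 23.5% (Yap1) and 13.3% and 25.8% (Yap1b), and chromosome starts alone held 3.12% and 5.86% (Yap1) and 2.79% and 5.36% (Yap1b), positive list before control list. Merging regions within 10 kb gave 12.0% for Yap1 control (13.1% as reported), a Yap1 median length difference of 311 bp (148 bp) and 3 ends with more Yap1 positive regions (5). That count of ends was 8 at 0.5 Mb, 2 of the 24 starts and 9 in the upper part by score. A chromosome start set at its first listed region, chosen after seeing the data, gave 14.3% for Yap1 control. No paired analysis was possible because each group is 1 sample. Read depth was unknown, and counts of a few regions per end limit what single ends can show.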
